A study of Mus musculus with 4 samples.

Results

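The genes described are 32 mouse genes whose products work in germ cells and whose promoters are known to be silenced by DNA methylation in other cells. They were chosen by name, with earlier results of these data known, and are set against all 26031 named gene models of the mm9 annotation. The data are the 5 kb bins of the genome that the depositors listed as changed in 5-hydroxymethylcytosine (5hmC) without LSH, in embryonic stem (ES) cells, the pluripotent cells of the early embryo, and in embryonic fibroblasts (MEFs) of the mouse. In ES cells, LSH knockout cells were compared with wild-type cells, both grown in medium with serum and LIF. In MEFs, LSH knockout cells were likewise compared with wild-type cells, grown in serum without LIF. Each of the 4 groups (ES knockout, ES wild type, MEF knockout, MEF wild type) has 1 library, and nothing in the labels says how the gene was deleted, in how many clones or embryos, or at which age the embryos were taken. The lists name 8557 bins for ES cells and 9002 for MEFs by position alone. They hold no level, fold, direction or p-value and the read depth is unknown, so a listed bin is one called changed, not one known to have gained or lost 5hmC. For the same reason no replicate error or test between genotypes can be given, and neither the cell type labels nor the absence of LSH could be checked. Promoter methylation itself was not measured in these files, so the methylated state in the name of the gene group is background.

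Germline genes are switched off in the embryo around implantation, when their CpG-rich promoters are methylated, mainly by DNMT3B. In ES cells the same promoters are also held silent by a Polycomb complex, PRC1.6, which is recruited by E2F6, bound to E2F sites, and by MGA and MAX, bound to E-boxes. LSH, encoded by Hells, is a SNF2-family remodeler that is needed for full DNA methylation. TET enzymes oxidise 5-methylcytosine to 5hmC, so a region must be methylated at some time before it can carry 5hmC.

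The promoters of 6 members are shown to make the CpG content of these starts visible: the 3 whose promoter bin was on a list (Asz1, Dpep3 and Tex14) and 3 well known silenced ones with none (Dazl, Ddx4 and Sycp3). Each run holds the 250 bases before the RefSeq start, 5′ to 3′ on the gene's strand, with every CpG in capitals. The sequences are from RefSeq promoters of build GRCm38.p6, and each was found once, without mismatch, beside its gene in mm9. In mm9 they lie at chr6:18059062-18059311 (minus strand), chr8:108503320-108503569 (minus), chr11:87218317-87218566 (plus), chr17:50432946-50433195 (minus), chr13:113442519-113442768 (minus) and chr10:87922082-87922331 (plus).
Asz1: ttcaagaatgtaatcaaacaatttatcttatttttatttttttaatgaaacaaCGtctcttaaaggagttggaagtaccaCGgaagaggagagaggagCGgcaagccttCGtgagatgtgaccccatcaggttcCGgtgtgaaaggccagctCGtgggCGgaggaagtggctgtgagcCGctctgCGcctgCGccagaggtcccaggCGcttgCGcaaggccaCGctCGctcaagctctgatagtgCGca
Dpep3: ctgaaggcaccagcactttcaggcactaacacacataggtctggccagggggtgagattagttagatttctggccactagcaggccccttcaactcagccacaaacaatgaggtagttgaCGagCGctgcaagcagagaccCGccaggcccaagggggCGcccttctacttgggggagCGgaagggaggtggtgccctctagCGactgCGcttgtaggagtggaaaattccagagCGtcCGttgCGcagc
Tex14: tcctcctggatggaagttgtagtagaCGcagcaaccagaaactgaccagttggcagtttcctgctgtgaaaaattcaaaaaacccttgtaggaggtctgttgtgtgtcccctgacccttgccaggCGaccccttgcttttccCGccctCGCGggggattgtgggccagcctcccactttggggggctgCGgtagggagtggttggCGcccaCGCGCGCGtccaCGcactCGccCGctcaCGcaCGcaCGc
Dazl: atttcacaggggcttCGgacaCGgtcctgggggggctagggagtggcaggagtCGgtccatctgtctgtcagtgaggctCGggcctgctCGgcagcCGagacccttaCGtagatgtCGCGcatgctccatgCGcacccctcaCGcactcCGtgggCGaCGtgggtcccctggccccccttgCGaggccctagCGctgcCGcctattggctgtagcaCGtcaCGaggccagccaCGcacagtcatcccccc
Ddx4: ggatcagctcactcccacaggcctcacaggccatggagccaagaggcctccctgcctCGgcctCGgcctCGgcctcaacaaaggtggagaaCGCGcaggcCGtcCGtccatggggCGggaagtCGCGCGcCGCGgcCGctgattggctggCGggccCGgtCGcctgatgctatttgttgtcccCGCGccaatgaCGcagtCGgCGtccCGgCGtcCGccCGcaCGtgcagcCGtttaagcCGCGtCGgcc
Sycp3: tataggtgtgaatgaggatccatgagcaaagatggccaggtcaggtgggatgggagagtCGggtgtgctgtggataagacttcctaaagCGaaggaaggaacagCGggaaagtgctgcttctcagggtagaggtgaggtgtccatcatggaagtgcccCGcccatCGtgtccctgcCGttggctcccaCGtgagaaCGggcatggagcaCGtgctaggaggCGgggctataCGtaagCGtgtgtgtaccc

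These runs hold 15 CpGs at Asz1, 10 at Dpep3, 17 at Tex14, 20 at Dazl, 31 at Ddx4 and 12 at Sycp3. Over the 28 members with a RefSeq promoter the range was 4 (Rhox13) to 31 (Ddx4) with a median of 15.5, against a median of 6 in all 27025 RefSeq promoters. Tex11, Tex13, Tex15 and Piwil2 had no entry. The E-box CACGTG, which reads the same on both strands, was present in 13 of the 28, or 46.4%, against 6.05% of all promoters of this length. Among the 4944 promoters with a CpG count within the quartiles of the members, 9.1% held it. The E-box was present at Ddx4, Mael, Sycp1, Sycp3, Stag3, Tdrd1, Mov10l1, Piwil1, Brdt, Hormad1, Slc25a31, Taf7l and Stk31, with a pair of copies at Sycp3, Hormad1 and Piwil1.

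The E2F core TCCCGC, searched on both strands, was in 9 of the 28 members (32.1%) against 16.9% of all promoters and 29.8% of those with a like CpG count. The longer TTCCCGC, which contains that core, was in 7 members, at Ddx4, Sycp3, Tex14, Hormad1, Rpl10l, Tuba3a and Smc1b, or 25%, against 3.84% and 6.61%. In total, 18 members held the E-box or the shorter E2F core, and 4 held both. Of the 3 starts whose bin was listed, Tex14 held the E2F letters, 111 bases before its start, and neither motif was found in these windows of Asz1 and Dpep3. Both motifs contain a CpG, and a match says nothing of whether a factor was bound.

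Few germline promoters were on either list. A promoter bin was one that overlaps the 1 kb on either side of the gene start. In ES cells 2 of 32 members had a listed promoter bin, or 6.25% (exact 95% binomial interval 0.766% to 20.8%), beside 4.26% of all genes. In MEFs 1 of 32 had one, or 3.12% (0.0791% to 16.2%), beside 3.22% of all genes. Both counts lie near the background. Among genes whose promoter CpG lay within the quartiles of the members (29.0 to 41.0 CpG per kb), the background was 5.56% in ES cells and 2.92% in MEFs. The intervals cover counting error over genes, which are not replicates of a condition.

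Asz1 encodes an ankyrin repeat protein of the germ granule that is needed to make piRNAs, the small RNAs that silence transposons in germ cells. Its ES bin (chromosome 6, 18055001 to 18060000) reached from 0.939 kb before the start to 4.06 kb into the gene and held 2 of its exons. With 60 CpGs, or 12.0 per kb, and 0.968% of sampled 32-base words found more than once in the genome, the bin is moderate in CpG and low in repeated sequence. The nearest MEF bin was 191 kb from this start.

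Dpep3 encodes a membrane-bound dipeptidase of the testis. Its ES bin (chromosome 8, 108500001 to 108505000) ran from 1.68 kb before the start to 3.32 kb after it and held 7 exons of this 5.9 kb gene, so promoter and body cannot be separated there. The bin had 19.8 CpG per kb. No other gene overlapped the Asz1 or the Dpep3 bin.

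Tex14, needed for the bridges that join dividing germ cells, had the only member promoter bin on the MEF list (chromosome 11, 87215001 to 87220000). It reached from 3.57 kb before the start to 1.43 kb after it and was CpG-rich, at 28.6 per kb. The same bin holds the promoter of Rad51c, a DNA repair gene expressed in most dividing cells, so it cannot be assigned to the germline gene alone. In ES cells the nearest listed bin was 256 kb from the Tex14 start.

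**Figure D1:**
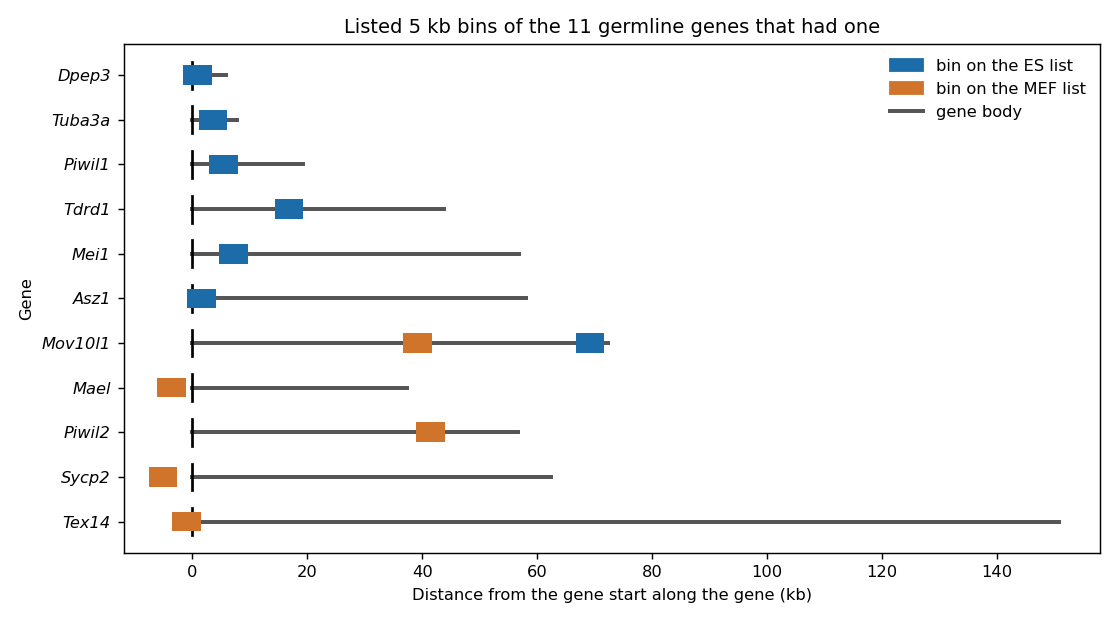
The 11 members with a listed bin, each drawn from its gene start (black tick, 0 kb) along the gene body (grey line), with 5 kb bins of the ES list in blue and of the MEF list in orange. Bins over the start are seen at Asz1 and Dpep3 (ES) and Tex14 (MEF), those of Mael and Sycp2 lie before the start, and Mov10l1 has a bin of each list at different places.

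Some well known silenced germline promoters were on neither list, as were the promoters of most genes. A listed promoter bin was found in 4.26% of all genes in ES cells and 3.22% in MEFs. Over all genes the median distance from the start to the nearest listed bin was 71.4 kb in ES cells and 120 kb in MEFs. Dazl, an RNA-binding regulator of germ cell translation, had the most CpG around its start of all members (70.5 per kb) and its nearest listed bins lay 52.1 kb away in ES cells and 62.9 kb away in MEFs. For Ddx4, the germ granule helicase also called Vasa, these distances were 47.5 kb and 27.5 kb. For Sycp3, a protein of the synaptonemal complex axis, they were 117 kb and 7.31 kb. For Brdt, a bromodomain protein of spermatocytes, they were 110 kb and 30.2 kb. Of the sampled 32-base words in the promoter bins, 0.612% at Dazl, 7.84% at Ddx4 and 1.22% at Sycp3 occurred more than once, and over all 32 members the highest share was 20.5%, at Rpl10l.

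Outside promoters, the ES bins of the members all lay over exons of the gene models. Such exon bins make up 203 of the 323 member bins outside promoters. A total of 5 members had an ES bin outside the promoter window, or 15.6% (5.28% to 32.8%), beside 16.5% of all genes. The germ granule genes supplied 3 of them. Tdrd1, a Tudor protein that binds PIWI proteins, had a bin over 6 exons (chromosome 19, 56915001 to 56920000), starting 14.3 kb into the gene. Piwil1, which encodes the PIWI protein MIWI, had one over 6 exons (chromosome 5, 129245001 to 129250000), from 2.88 to 7.88 kb after the start. Mov10l1, the RNA helicase of piRNA production, had one over 3 exons near its end (chromosome 15, 88880001 to 88885000), from 66.7 kb on in a gene of 72.2 kb.

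The other 2 were Tuba3a and Mei1. Tuba3a, a testis alpha-tubulin gene, had a bin over 3 exons (chromosome 6, 125230001 to 125235000) that began 1.06 kb after the start, just outside the promoter window. In that bin 18.5% of the sampled words recur in the genome. Mei1, needed for the DNA breaks of meiosis, had a bin over 2 exons of its model (chromosome 15, 81905001 to 81910000), 4.58 to 9.57 kb after the model start. The RefSeq start of Mei1 lies 12.5 kb downstream of the model start (12480 bp), so by RefSeq the bin is upstream of the gene. In the other 27 members with a RefSeq promoter the first RefSeq start was within 1 kb of the model start.

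In MEFs 4 members had a bin outside the promoter window, or 12.5% (3.51% to 29.0%), beside 11.8% of all genes, and these lay upstream as often as in the body. Mael, a factor of transposon silencing, had a bin before its start (chromosome 1, 168170001 to 168175000), from 6.12 to 1.13 kb upstream. Sycp2, an axial element protein, had one from 7.61 to 2.61 kb upstream (chromosome 2, 178145001 to 178150000). The Sycp2 bin had 41.6 CpG per kb and holds the promoters of Ppp1r3d and 9030418K01Rik, so it too cannot be given to the germline gene alone. Piwil2, which encodes the PIWI protein MILI, had a bin over 1 exon (chromosome 14, 70785001 to 70790000), 38.9 to 43.9 kb after its start. Mov10l1 had a MEF bin over 4 exons (chromosome 15, 88850001 to 88855000), 36.7 to 41.7 kb after its start and upstream of its ES bin.

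Of the members' 364 bins, 203 held an exon of the gene, 93 were intronic, 41 were promoter bins and 27 lay upstream. In ES cells 5 of the 203 exon bins were listed (2.46%), beside 3.57% of exon bins over all genes, and 0 of the 93 intron bins, beside 1.92%. In MEFs 2 of the 203 exon bins were listed (0.985%), beside 2.23%, and 0 of the 93 intron bins, beside 2.6%. MEF upstream bins were 2 of 27 (7.41%), beside 1.96%. These counts are too few to rank the parts.

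Taking body and 5 kb upstream together, 7 of 32 members had an ES bin, or 21.9% (9.28% to 40.0%), beside 19.8% of all genes and 23.5% of genes of like length (12.9 to 63.6 kb, the quartiles of the members). In MEFs 5 of 32 did, or 15.6% (5.28% to 32.8%), beside 14.1% of all genes and 14.5% of genes of like length. Each of these members had 1 bin per list. By bins, which takes account of gene length, 7 of 364 were listed in ES cells, or 1.92% (0.777% to 3.92%), beside 2.58% of all gene bins. In MEFs 5 of 364 were, or 1.37% (0.447% to 3.18%), beside 2.38%. Member bins held a median of 6.8 CpG per kb, against 8.6 in all gene bins and 13 in the gene bins of the ES list. At the listed share of gene bins of the same CpG decile, the 364 bins would hold 7.37 ES bins and 6.8 MEF bins, close to the 7 and 5 observed.

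A total of 11 members had a bin on either list, and Mov10l1 alone had one on each, beside 5.9% of all genes with bins on both. Of 364 member bins 0 were on both lists, which allows a share of up to 0.824% (3 counts), beside 0.118% of all gene bins. Likewise 0 were ES bins that matched or adjoined a MEF bin, beside 0.295%. Counts of 0 in 364 are near that background. Whether the members differ between ES cells and MEFs was not tested, since each genotype has 1 library per cell type.

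**Figure D2:**
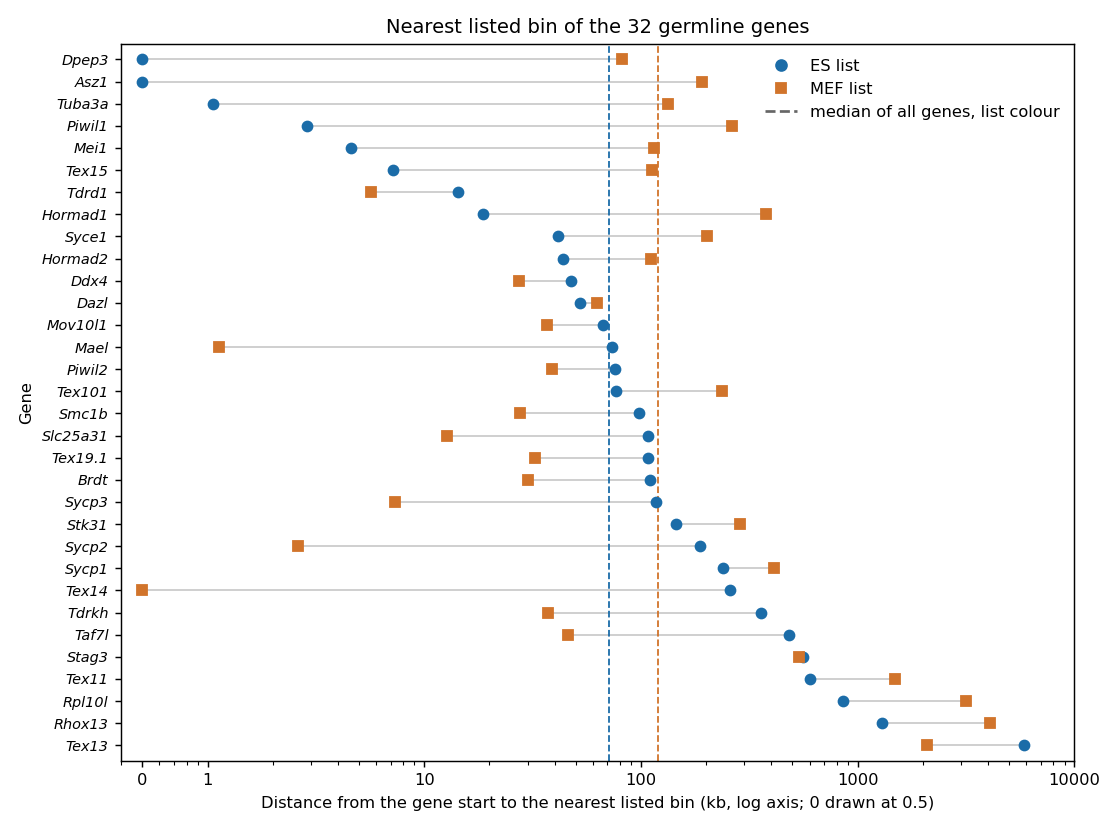
Distance from the gene start of each of the 32 members to the nearest listed bin, for the ES list (blue circles) and the MEF list (orange squares), on a log axis in kb with 0 drawn at 0.5; dashed lines mark the medians of all genes. The median of the members was 87.3 kb on the ES list, against 71.4 kb for all genes, and 96.4 kb on the MEF list, against 120 kb.

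Distances from the member starts to the nearest listed bin ran from 0 to 5848 kb on the ES list. On the MEF list they ran from 0 to 4056 kb. An ES bin lay within 5 kb of the start in 5 members (15.6%), beside 8.92% of all genes, and within 50 kb in 11 (34.4%), beside 41.7%. A MEF bin lay within 5 kb in 3 members (9.38%), beside 6.38%, and within 50 kb in 14 (43.8%), beside 29.4%. The MEF gap at 50 kb was not seen at the neighbouring distances. Within 25 kb there were 6 members (18.75%), beside 18.2%, and within 100 kb 16 (50%), beside 45.5%. An ES bin lay within 10 kb in 6 members (18.75%), beside 14.3% of all genes. These were Asz1, Dpep3, Tuba3a, Piwil1, Mei1 and Tex15, a protein of meiotic recombination, and none had a MEF bin within 50 kb. A MEF bin lay within 10 kb in 5 members (15.6%), beside 9.7% of all genes. Of these, Mael, Sycp2, Sycp3 and Tex14 had no ES bin within 50 kb. The share of all genes near 1 list and far from the other was not counted, so these names do not mark a trait of the members. Sycp1, Stag3, Stk31, Rpl10l and the X-linked genes Tex11, Tex13 and Rhox13 were over 100 kb from any bin of either list. Tdrd1 was near both, with an ES bin 14.3 kb downstream and a MEF bin 5.7 kb upstream of its start.

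The farthest members were mostly on chromosome X. That chromosome holds 4 members, Tex11, a crossover factor, Tex13, Taf7l, a testis form of a TFIID subunit, and Rhox13, a homeobox gene. They had 0 listed bins among 60 in either list (0% to 5.96%). The whole of chromosome X held only 18 ES bins and 52 MEF bins, and of its 1101 genes 14 had an ES bin (1.27%) and 19 a MEF bin (1.73%). Taf7l, with a MEF bin at 46 kb, was the nearest of the 4. For Tex13 the nearest bins were 5848 kb away in ES cells and 2097 kb away in MEFs. Without these 4 genes the counts were 7 of 28 in ES cells, or 25% (10.7% to 44.9%), and 5 of 28 in MEFs, or 17.9% (6.06% to 36.9%). Both intervals include the shares of all genes with chromosome X kept, 19.8% and 14.1%. The shares of all genes off chromosome X were not counted. The autosomal retrogene Rpl10l, a stand-in for its X-linked parent gene in meiosis, was likewise remote, at 855 kb and 3160 kb.

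By role, 7 of the 12 listed member bins of both lists were in piRNA and germ granule genes. These make up 10 of the 32 members and hold 105 of the 364 member bins. Of the 105 bins, 3.81% were on the ES list (1.05% to 9.47%), beside 2.58% of all gene bins. On the MEF list 2.86% were (0.593% to 8.12%), beside 2.38%. Each interval includes the share of all gene bins. Of the 10 members with piRNA or germ granule roles, 4 had an ES bin (Tdrd1, Mov10l1, Piwil1 and Asz1), or 40.0% (12.2% to 73.8%), beside 19.8% of all genes. In MEFs 3 of the 10 did (Mael, Mov10l1 and Piwil2; interval 6.67% to 65.2%), beside 14.1%. Both intervals include the share of all genes. Ddx4, Tdrkh, which anchors PIWI proteins at mitochondria, Tex19.1, which restrains retrotransposons, and Stk31 had none in either list. Of the 11 members of the synaptonemal complex, cohesin and chromosome axis, 1 had an ES bin (Mei1) and 1 a MEF bin (Sycp2), or 9.09% each (0.23% to 41.3%), which again includes the share of all genes. Sycp1 of the synaptonemal complex transverse filaments, Syce1 of its central element, the meiotic cohesin genes Stag3 and Smc1b, and the axis genes Hormad1 and Hormad2 had none. Of the 2 genes for RNA binding and bridges, Dazl had none and Tex14 its MEF bin. Brdt, Taf7l, Rhox13 and Tex13, genes of spermatogenic chromatin and transcription, had none. Of the 5 remaining genes, Tuba3a and Dpep3 had an ES bin (interval 5.27% to 85.3%), while Slc25a31, the sperm ADP/ATP carrier, Rpl10l and Tex101, a surface protein of germ cells, had none.

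A second list held 53 germline genes that are not members. Of these 14 had an ES bin, or 26.4% (15.3% to 40.3%), and 6 a MEF bin, or 11.3% (4.27% to 23.0%), near the 19.8% and 14.1% of all genes. Of its 13 piRNA genes, 8 had an ES bin, or 61.5% (31.6% to 86.1%), and 1 a MEF bin. The Tudor genes Tdrd5, Tdrd6 and Tdrd7 and the PIWI gene Piwil4 had 1 ES bin each. Tdrd9, a helicase of the piRNA pathway, had 2 in a gene of 97.3 kb. Rnf17, a Tudor protein of spermatids, had 3 in a gene of 122 kb. Promoter bins of the ES list lay at Tdrd12 (chromosome 7, 36320001 to 36325000) and at Pld6, the mitochondrial nuclease of piRNA production (chromosome 11, 59600001 to 59605000). The single MEF bin was in Rnf17. Of its 23 genes of meiotic recombination and chromosomes, 2 had an ES bin and 2 a MEF bin, or 8.7% each (1.07% to 28.0%), an interval that includes the share of all genes in both lists. Both ES bins were promoter bins, at Spata22 (chromosome 11, 73140001 to 73145000), which also holds the promoter of Aspa, and at Meioc, named Gm1564 in the annotation (chromosome 11, 102520001 to 102525000).

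With the members added, 12 of 23 piRNA genes had an ES bin, or 52.2% (30.6% to 73.2%), beside 19.8% of all genes and 25.7% of the 6428 genes of like length (20.01 to 63.5 kb). In MEFs 4 of 23 did, or 17.4%, beside 14.1% and 16.4%. By bins, 15 of 253 were on the ES list, or 5.93% (3.36% to 9.59%), beside 2.58% of all gene bins and 3.47% of the bins of genes of like length, which lies inside that interval. Of 34 meiotic chromosome genes 3 had an ES bin and 3 a MEF bin, or 8.82% each (1.86% to 23.7%). That interval includes the 19.8% and 14.1% of all genes. By bins, 3 of 415 were on each list, or 0.723% (0.149% to 2.1%). The shares of all gene bins, 2.58% and 2.38%, lie above that interval, but the 415 bins are unevenly spread over genes. Mei4 holds 70, and its nearest listed bins are 1028 kb (ES) and 933 kb (MEF) from its start. Tex11 holds 47 on chromosome X, where 0.105% (ES) and 0.21% (MEF) of gene bins were listed. Bins of 1 gene are not independent, and no share at like length was counted for this role. Whether meiotic chromosome genes hold fewer listed bins was not tested. The roles were assigned with some results of these lists known, and the difference between them was not tested.

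**Figure D3:**
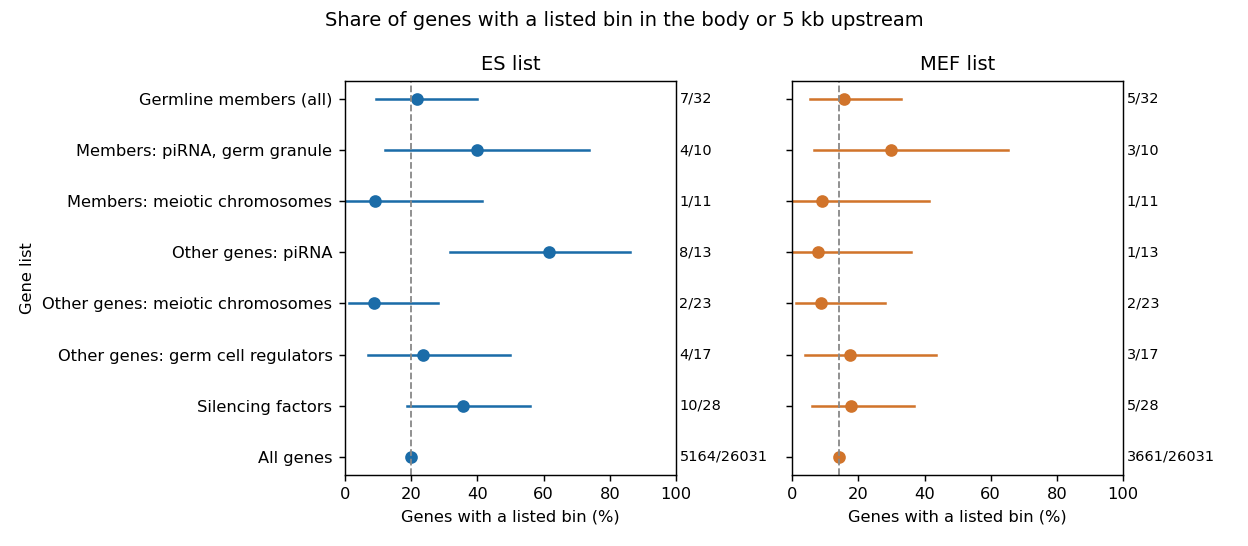
Share of genes with a listed bin in the body or 5 kb upstream, in percent, on the ES list (left) and the MEF list (right), for the members, their main roles, the further lists and all genes; bars are exact 95% binomial intervals, the numbers at the right give the count, and the dashed line is the share of all genes. The piRNA genes outside the members stood at 8 of 13 on the ES list; the roles were assigned with some results known, so the intervals are a description and not a test.

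The 3 listed germline starts lay within the range of the other members in promoter CpG. CpG within 1 kb of the start ran from 21.99 per kb at Tex101 to 70.5 at Dazl with a median of 33.2, against 27.5 over all genes. The promoters listed in ES cells were at 24.99 (Asz1) and 29.0 (Dpep3) and that listed in MEFs at 52.0 (Tex14). Over all genes the share with a listed ES promoter bin was highest in the fourth decile of promoter CpG, at 6.92%, and 5.72% in the sixth decile, where 11 members fell. In MEFs it was 4.99% in the fourth decile and 2.88% in the sixth. No member fell in the lowest 4 deciles.

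**Figure D4:**
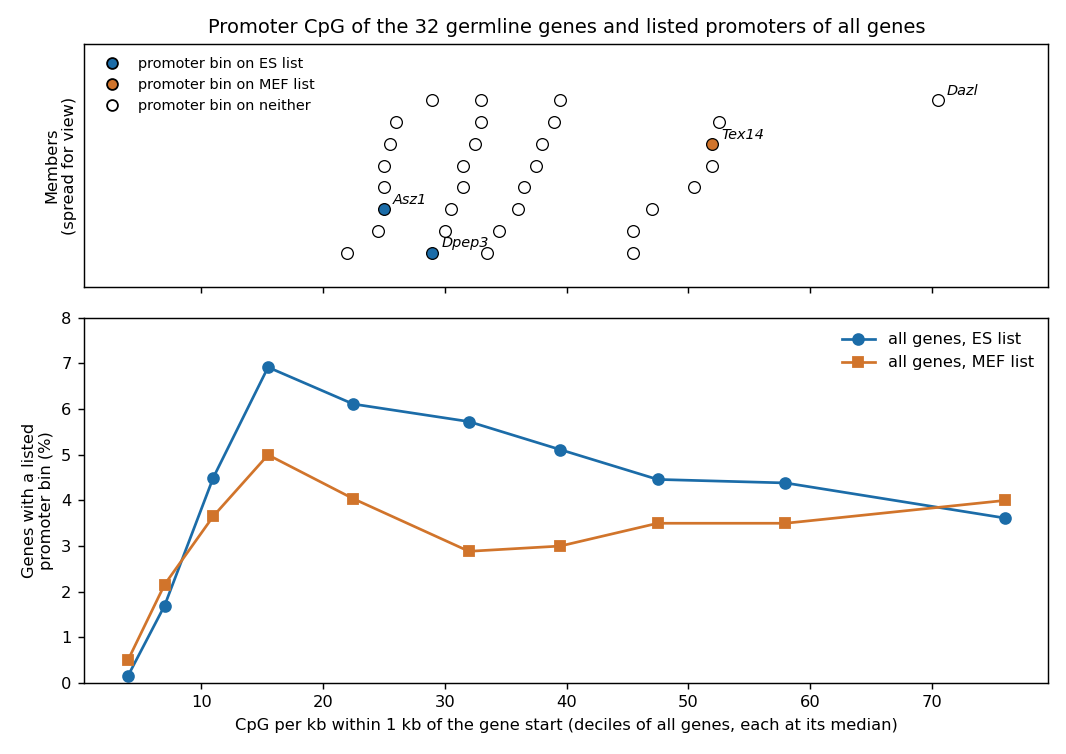
Top, CpG per kb within 1 kb of the start of each of the 32 members, filled where the promoter bin was on the ES list (blue) or the MEF list (orange); bottom, share of all genes with a listed promoter bin in each decile of promoter CpG, in percent. The filled members, Asz1, Dpep3 and Tex14, lie among the open ones, between 24.99 and 52.0 CpG per kb.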

How the data were processed

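Genomic DNA was sheared, 5hmC was tagged with an azide-glucose and biotin, and captured fragments were sequenced, per the labels' protocols. BWA and SAMtools 1.3.1 on mm9 are named, without their role, in the submitters' processing notes. The deposited values are other than levels: starts and ends of listed 5 kb bins, so 0 columns hold values per sample. The sources used here do not name the bin caller, its threshold or an input library. Read depth is unknown.

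Bins on chromosomes 1 to 19 and X (8545 ES, 8972 MEF) were used. The build was checked by chromosome ends: no bin passed one, and the shortened MEF bin of chromosome 13 ended at 120284312, its length. Genes were GENCODE M1 models (protein-coding, lincRNA, processed transcript; longest per name). All 32 members were matched by name, as were 46 of 53 further germline genes (the other 7 through RefSeq synonyms) and 28 of 28 silencing factors. A gene's bins overlap its body or 5 kb upstream. Repeated words were sampled at 1 in 16.

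No test was run, since there is 1 library per group. Intervals are Clopper-Pearson. The overlap counting was checked on simulated lists. All members are named. Named from the further lists are genes with a listed promoter bin or at least 2 bins. The other listed piRNA genes and E2f6, Mga and Pcgf6 were added to those named after their values were seen. Printed promoters are those with a listed promoter bin plus Dazl, Ddx4 and Sycp3. Members, lists and roles were chosen with earlier results of these data known. Python 3.11.15, numpy 2.4.6, pandas 2.3.3, scipy 1.17.1, numba 0.67.0 and matplotlib 3.10.9 were used.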

Additional observations from a re-analysis of the deposited data

How the results depend on the processing

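The ES counts stayed within 1.5 times under every alternative run: 7 to 9 members with a bin and 2 or 3 with a promoter bin, Tuba3a joining with a window of 2 kb. The MEF counts rest on few bins. Members with a MEF bin numbered 5, but 3 with the body alone, 8 with 20 kb upstream and 3 without bins that overlap another gene or its promoter, which removes Sycp2 and Tex14. The member with a MEF promoter bin was 1, but 2 with a window of 2 kb, which adds Mael, and 2 with the start of any transcript, which adds Mov10l1. The listed share of member bins ran from 1.92% to 2.11% in ES cells and from 0.904% to 1.77% in MEFs. The 12 piRNA genes with an ES bin became 11 without bins shared with another gene. RefSeq starts, the leaving out of chromosome X and the piRNA alternatives were chosen after seeing the data. No paired analysis was possible because each group has 1 library, and leaving out a replicate or a stricter calling threshold could not be run for want of replicates and scores. Bins of 5 kb limit every promoter statement, since a listed bin need not have changed at the start itself.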

Other observations

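Of 28 genes for the silencing of germline promoters, 10 had an ES bin, or 35.7% (18.6% to 55.9%), beside 19.8% of all genes, and 5 a MEF bin, or 17.9% (6.06% to 36.9%), beside 14.1%. Both intervals include the share of all genes. None of the 28 had an ES promoter bin (0% to 12.3%), beside 4.26% of all genes, which lies inside that interval. Tfdp1, a dimer partner of E2F proteins, had 2 ES bins, 1 over an exon near its end and 1 intronic. Dnmt3a, a de novo methyltransferase gene of 108 kb, had 2 ES bins and 1 MEF bin. Rnf2, the ubiquitin ligase subunit of Polycomb complexes, had an intronic ES bin and a MEF promoter bin (chromosome 1, 153345001 to 153350000) with 37.8 CpG per kb. E2f6, Mga and Pcgf6 had none in either list.

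Of 17 regulators of germ cells outside the members, 4 had an ES bin, or 23.5%, and 3 a MEF bin, or 17.6%, near the 19.8% and 14.1% of all genes. Gfra1, the GDNF co-receptor of spermatogonial stem cells, had 3 of each, 1 of its MEF bins in the promoter window (chromosome 19, 58525001 to 58530000). Kit, a receptor of germ cell precursors, had 1 ES bin and 2 MEF bins, all intronic. Zbtb16, a spermatogonial transcription factor, had 2 ES bins. Gfra1 (220 kb), Kit (81.8 kb) and Zbtb16 (182 kb) are long, against a median of 13.6 kb over all genes, so their bin counts are not scaled for length. Promoter bins lay at Dppa3 in ES cells (chromosome 6, 122575001 to 122580000) and at Sohlh1 in MEFs (chromosome 2, 25700001 to 25705000). Several of these genes are expressed in cells other than germ cells.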
